A study of Mus musculus with 12 samples.

Results

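Chaperones of the cytosol and of mitochondria were followed between undifferentiated and differentiated mouse mammospheres. The group was defined by gene symbol alone. It took every probe set that the platform tables pair with 1 gene whose symbol begins with Hspa, Hspb, Hspd, Hspe, Hsph, Hsp90a, Dnaja, Dnajb, or Cct followed by a digit, together with Tcp1. Hspa5 and Dnajb9 of the endoplasmic reticulum and the genes named Hspbap or Hspbp were left out. The definition gave 50 genes with 122 probe sets, of 18194 genes and 35067 probe sets paired with 1 gene. Of the 122, 95 probe sets of 44 genes are on chip MOE430A and 27 of 16 genes are on MOE430B, with 6 genes on MOE430B alone. The definition is by name, so it also holds Dnajb11, Dnajb12, Dnajb14 and Hspa13, which are known from the endoplasmic reticulum, and Hspb11, known from intraflagellar transport. Hsp90ab1 was not analysed here.

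Mammospheres are balls of cells that grow in suspension from mammary tissue and are held to contain stem and progenitor cells. Undifferentiated samples 1, 2 and 4 were passage 3 mammospheres in DMEM and F12 medium (3:1 per the labels) with B-27, basic fibroblast growth factor, epidermal growth factor and heparin. Their purity was estimated at 90%, with 10% myoepithelial cells. Differentiated samples 1, 2 and 4 had been induced over 6 days by plating on collagen with 5% fetal bovine serum in DMEM of high glucose, and were estimated at 50% myoepithelial and 50% luminal cells. All were kept at 37 °C and 5% CO2. Medium, serum, attachment and time in culture differ between the states together, so their parts cannot be told apart, and strain, genotype and age are not given in the sources used here. Whether samples 1, 2 and 4 of a state were grown or prepared apart is not given in the labels, and p-values therefore cover only the spread between these RNA samples, which may be technical. In such bulk RNA, a change in the share of a cell type and a change of RNA per cell cannot be told apart.

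Chaperones bind unfolded or partly folded proteins. HSP70 proteins bind short exposed stretches in a cycle driven by ATP, which J-domain proteins (DNAJ) start and nucleotide exchange factors such as HSP110 complete. HSP90 acts later on signalling clients. Small heat shock proteins hold unfolded protein without ATP and are abundant in contractile cells. Chaperonins enclose their substrates in a chamber: HSP60 with its lid HSP10 in the mitochondrial matrix, and the TRiC complex, built of TCP1 and the CCT subunits, in the cytosol, where actin and tubulin are its best known clients. Heat shock factor 1 raises many of these genes under proteotoxic stress.

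Signals are the authors' MAS5 values, scaled so that each array has the same trimmed mean, and all values below are for 3 samples per state with the SD, except that log2 fold changes carry limma's SE. The number of arrays limits the precision. Differentiated samples 1 and 4 stood apart from the others. Over the undifferentiated mean, their spiked hybridisation controls read 2.88 and 2.85 times on MOE430A, against 1.44 times in differentiated sample 2, and their 18S ribosomal RNA probe set read 21.4 and 15.1 times, against 1.77 times. Array and state are also joined to the fluidics station, since station 2 ran the undifferentiated and station 1 the differentiated arrays. Cell type markers bore on the labels. Of 8 myoepithelial markers tested, the contractile genes Acta2, Tagln, Mylk and Cnn1 rose, while Krt14, Krt5, Oxtr and Trp63 were below background in all 6 samples. The summed signal of all the tested markers of this list on MOE430A was 7543 to 7978 undifferentiated and 63699 to 83601 differentiated. Of 11 luminal markers, 3, 4 and 5 were above background in undifferentiated samples 1, 2 and 4, and 2, 2 and 3 in the differentiated ones. Of the 6 luminal markers tested none passed, with a median log2 fold change of -0.11. The summed signal of those on MOE430A was 2708 to 3690 undifferentiated and 1971 to 3091 differentiated. Krt8 was above background in all 6 samples and Krt18 in no differentiated sample. All 9 fibroblast markers were above background in every sample, with a summed signal of 331057 to 338634 in the undifferentiated and 528337 to 735009 in the differentiated samples, but they did not move together. Col1a1, Col1a2, Col3a1, Pdgfra and Thy1 rose, Lum (log2 change -1.52 ± 0.14, adjusted p = 0.00039) and Fap (log2 change -1.39 ± 0.23, adjusted p = 0.00571) fell, and Dcn and Pdgfrb did not pass. The defining keratins of myoepithelial cells were not seen above background, and the part of cell makeup in the values below was not tested.

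On MOE430A the chaperones moved both ways, and 7 of the 17 rises were at small heat shock proteins and 7 of the 13 falls at TRiC subunits, counts that depended on the processing as given with each family. A probe set was tested if its mean signal reached 20% of the trimmed mean, and passed at a limma p-value, adjusted over all probe sets of the chip, below 0.05. Of 122 probe sets, 100 were tested, belonging to 41 of the 50 genes. Those of Dnajb3, Dnajb7, Dnajb13, Hspa1a, Hspa1l, Hspa12b, Hspb3, Hspb9 and Cct6b were too dim. Of 77 tested on MOE430A, 17 rose (22.1%) and 13 fell (16.9%), beside 14.1% and 14.4% of all probe sets tested there. Their median log2 fold change was -0.018, against 0.033 for all probe sets. On MOE430B limma passed none of 23 in either direction. At an unadjusted limma p below 0.05, 4 were higher and 1 lower, where 2687 of all 17915 were below it in either direction. On that chip 0.714% of all probe sets rose and 1.12% fell. With each gene shown by its probe set of highest signal, 11 genes rose, 6 fell and 24 did not pass, where 9.23% of all genes rose and 9.27% fell. No gene had probe sets that passed in both directions.

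**Figure D1:**
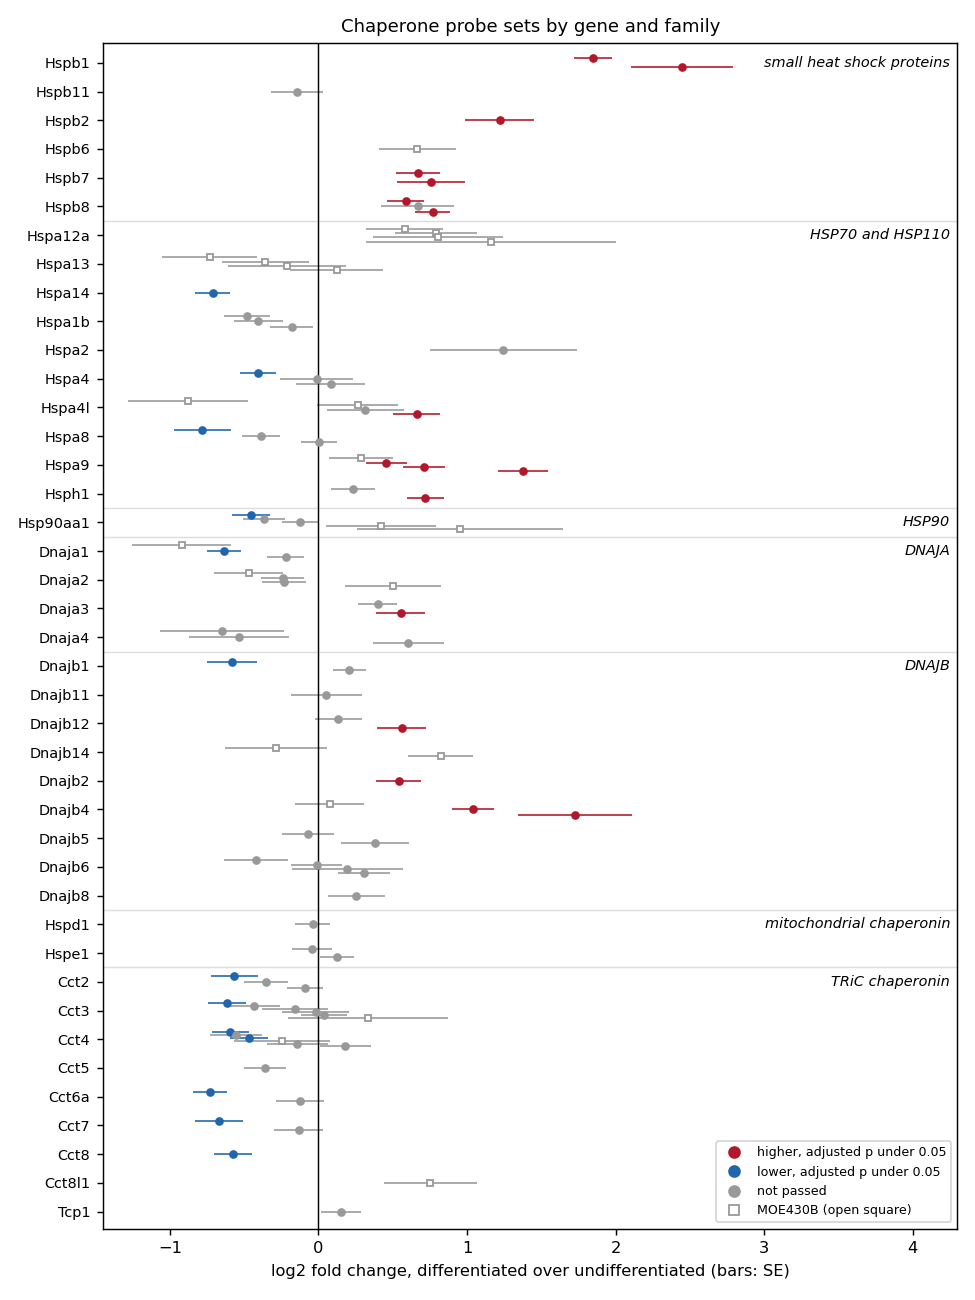
Log2 fold change (horizontal axis, differentiated over undifferentiated, bars are SE) of the 100 tested chaperone probe sets, arranged by gene and family. Red points rose, blue points fell, grey points did not pass, and open squares are on MOE430B. The small heat shock proteins lie mostly to the right and the TRiC subunits mostly to the left, and probe sets of the same gene often differ. These values are under scaling on the trimmed mean; scaling on the hybridisation controls turns the median of the small heat shock proteins to -0.39. Values of probe sets below background are shown as fitted.

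Of 9 probe sets of small heat shock proteins tested on MOE430A, 7 rose and none fell, beside 14.1% and 14.4% of all probe sets. Their median log2 fold change was 0.76, though scaling on the hybridisation controls left 1 higher and 1 lower with a median of -0.39. Of all 16310 probe sets tested with the hybridisation scaling, 233 were higher and 10955 lower. The rises were 4 under scaling on the poly-A controls, where 1223 of all 15971 rose. They were also 4 without undifferentiated sample 2, where 1389 of all 15939 rose. Without differentiated samples 1 and 4 the family's median log2 fold change was 0.65. The 7 belong to Hspb1, Hspb2, Hspb7 and Hspb8, 4 of the 6 genes tested. Hspb1 (HSP25 in mouse), which binds unfolded protein and actin filaments, had the largest fitted rise of the chaperones tested. Its probe set 1422943_a_at read 2289, 2415 and 2701 in undifferentiated samples 1, 2 and 4 and 8382, 9351 and 9457 in differentiated samples 1, 2 and 4. The states were far apart, and the 3 differentiated samples were close to each other. The means were 2468 ± 211 and 9063 ± 592, a log2 fold change of 1.85 ± 0.13 (SE, adjusted p = 0.000126), or 3.6-fold on the scale with the offset of 75. The other probe set, 1425964_x_at, read 322, 554 and 962 against 2966, 3086 and 4300.4, with 2 of the undifferentiated values below background. It rose by 2.45 ± 0.34 (adjusted p = 0.00272), and was the only chaperone probe set that rose under every alternative of the processing. Without each sample in turn, the adjusted p of 1422943_a_at lay between 0.000482 and 0.00137.

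The Hspb1 promoter is shown because this gene had the largest fitted rise. The 250 bases before its RefSeq start (GRCm38.p6, chr5:135887669-135887918, plus strand) hold no complete heat shock element in the strict form of 3 alternating units, GAANNTTCNNGAA on either strand. They hold 2 pairs of units, GAANNTTC, in capitals below.
Hspb1: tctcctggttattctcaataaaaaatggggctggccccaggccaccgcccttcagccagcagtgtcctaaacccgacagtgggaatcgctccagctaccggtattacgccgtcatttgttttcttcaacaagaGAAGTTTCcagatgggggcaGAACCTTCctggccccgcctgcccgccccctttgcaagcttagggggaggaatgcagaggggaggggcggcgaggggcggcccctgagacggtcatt
Of all 32851 RefSeq windows of 300 bases (250 before and 50 after a start), 0.603% hold the 3-unit form, and 15.1% hold a unit pair in either order, GAANNTTC or TTCNNGAA. The 3-unit form itself contains such pairs. Windows were found for 44 of the 50 chaperone genes, 59 in all. The 3-unit form was in 6 of these windows (10.2%), from Hspd1, Hspe1, Hsph1 and Dnajb6, and a pair was in 19 (32.2%). Some windows overlap, so the same letters are counted more than once. The Hsph1 windows hold the same element, as do those of Dnajb6, and Hspd1 and Hspe1 share theirs. Of the 7 small heat shock protein genes with a window, 4 had a pair and none the 3-unit form. Such matches describe letters and not binding.

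Hspb8, a partner of BAG3 in clearing misfolded protein, read 2255, 2378 and 2427 at 1417013_at in the undifferentiated and 3827, 4253 and 4108 in the differentiated samples. The states did not overlap and the log2 fold change was 0.77 ± 0.12 (adjusted p = 0.00374). Its probe set 1417014_at rose by 0.59 (adjusted p = 0.0135), a call lost without undifferentiated sample 1 or 2 (highest adjusted p 0.0515), and 1456434_x_at, at 0.67, did not pass (adjusted p = 0.0823). Hspb2, found mainly in muscle, was below background in all 3 undifferentiated samples (525, 474 and 297) and above it in all 3 differentiated samples (1069.8, 862 and 1364). Its level was at least 1.87-fold higher in the differentiated state, with each undifferentiated array taken at the higher of its background and its signal (adjusted p = 0.00975). Hspb7, known from heart and muscle, read 1259, 1036 and 889.5 against 1699, 1689.8 and 1762 at 1421290_at. These did not overlap, with a log2 fold change of 0.67 ± 0.15 (adjusted p = 0.0169), and the call was lost without undifferentiated sample 2 or 4 (highest adjusted p 0.0572). Its probe set 1434927_at rose by 0.76 (adjusted p = 0.0455) and passed only without differentiated sample 2 when samples were left out.

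Hspb6, a relaxation-linked protein of smooth muscle, was measured on MOE430B alone, at 2707, 2667 and 1803 in the undifferentiated and 3730.3, 3889 and 3718 in the differentiated samples. The states did not overlap, but the log2 fold change of 0.67 ± 0.26 did not pass (adjusted p = 0.296). Hspb11 overlapped between states and stood at -0.14 ± 0.18 (adjusted p = 0.573). Striated muscle markers were set beside this family. Ckm (0.84 ± 0.19, adjusted p = 0.0182) and Actc1 (0.82 ± 0.23, adjusted p = 0.0342) rose among 6 of 11 that could be tested, the summed signal of the list on MOE430A was 2470.5 to 2990.5 against 3709 to 4852, and Tnnt3 and Mb were below background in every sample. Des (log2 change 0.54 ± 0.18, adjusted p = 0.0626) did not pass, nor did Tnnt2, which was lower in the mean on MOE430B with all 3 differentiated values below background (adjusted p = 0.395) and is not in that sum. Of the contractile genes of the myoepithelial list, Acta2 rose by 3.14 ± 0.13 (adjusted p = 2.9e-05) and Tagln rose from below background, at least 30.9-fold higher (adjusted p = 6.57e-05). Their part in the rise of the small heat shock proteins was not tested.

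**Figure D2:**
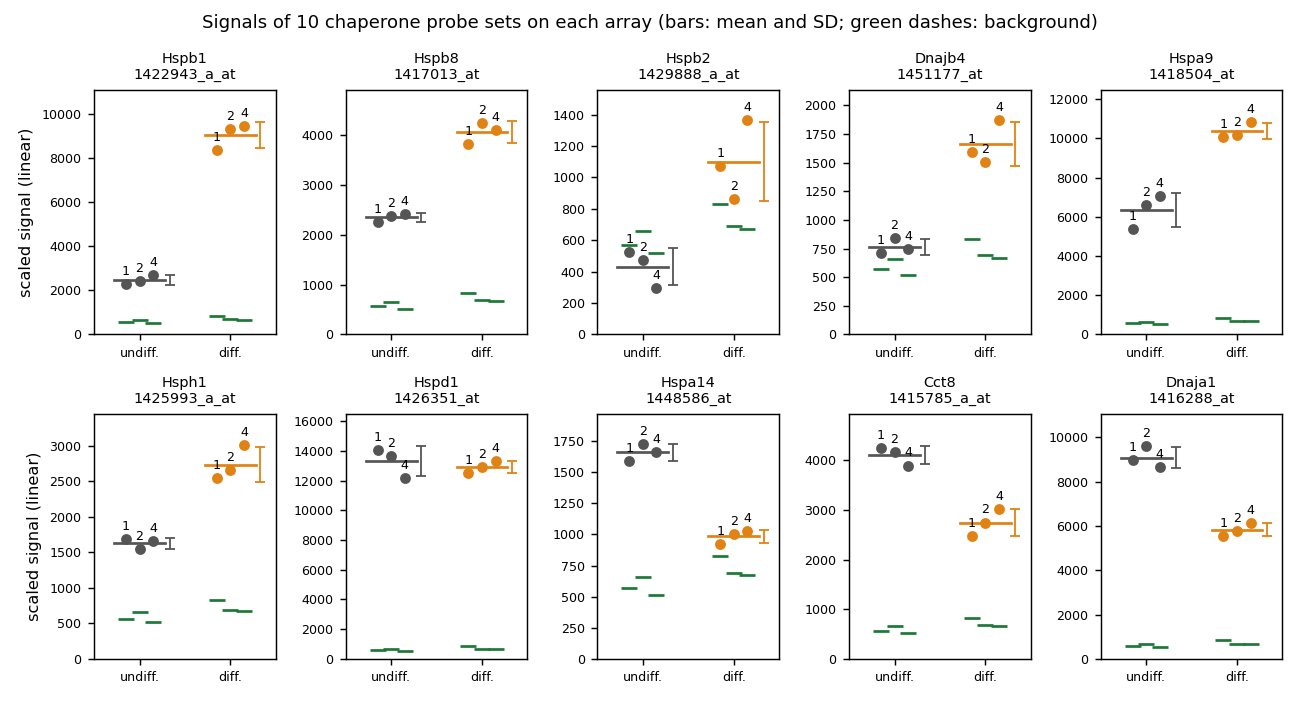
Scaled signal (vertical axis, linear) of 10 chaperone probe sets in each sample on MOE430A, with sample numbers over the points, the mean (line) and SD (bar) of each state and the background of each array (green dashes). The top row holds 5 of the genes that rose with Hspb1 first; in the bottom row Hsph1 is higher, Hspd1 overlaps between the states, and Hspa14, Cct8 and Dnaja1 are lower in the differentiated samples.

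Of 18 HSP70 and HSP110 probe sets tested on MOE430A, 5 rose and 3 fell, beside 14.1% and 14.4% of all probe sets, and by gene 3 rose, 2 fell and 5 did not pass of 10 tested. The counts were 2 and 0 under scaling on the poly-A controls, where 1223 and 1291 of all 15971 probe sets passed. They were 0 and 12 of 19 tested under scaling on the hybridisation controls, where 233 and 10955 of all 16310 passed. Without differentiated samples 1 and 4 the family's median log2 fold change was 0.15, against 0.042 as reported. Leaving out undifferentiated sample 2 or 4 left 3 rises, and leaving out undifferentiated sample 1 or 4 or differentiated sample 2 left 1 fall, while a filter at 50% of the trimmed mean gave 5 falls. Hspa9 (mortalin), the HSP70 of the mitochondrial matrix, rose at all 3 of its tested probe sets on MOE430A. Probe set 1418504_at read 5385, 6577 and 7072 in the undifferentiated and 10056, 10190.0 and 10834 in the differentiated samples. They did not overlap, and the log2 fold change was 0.71 ± 0.14 (adjusted p = 0.0112), with 0.0239 to 0.0353 when each sample was left out. Probe set 1431274_a_at was below background in all undifferentiated samples (539, 515 and 392) and read 1589, 1352 and 1177 after differentiation, at least 2.36-fold higher (adjusted p = 0.00151). Probe set 1418503_at rose by 0.46 (adjusted p = 0.0451), a call lost whichever of the 6 samples was left out (adjusted p 0.0501 to 0.13). The MOE430B probe set stood at 0.29 ± 0.22 and did not pass (adjusted p = 0.581).

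Hsph1 (HSP105), the main nucleotide exchange factor of the HSP110 class, read 1684, 1543 and 1661 at 1425993_a_at in the undifferentiated and 2545, 2655 and 3010.5 in the differentiated samples. The states did not overlap, and the rise of 0.72 ± 0.12 (adjusted p = 0.00634) passed without each sample in turn (0.0109 to 0.0299). Probe set 1423566_a_at overlapped, at 0.23 (adjusted p = 0.269). The 3-unit heat shock element of Hsph1 lies just after the RefSeq start, at chr5:149636279-149636308 on the minus strand with its flanks, the element in capitals.
Hsph1: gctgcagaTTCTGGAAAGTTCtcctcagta
Hspa4l, a testis-rich member of the same class, read 634, 584 and 496 against 1107, 809.8 and 932, with 2 undifferentiated values below background. It rose by 0.66 ± 0.16 (adjusted p = 0.0213), a call lost without undifferentiated sample 2 or 4 (highest adjusted p 0.0769). Its other 3 tested probe sets were below background in every sample and did not pass. Hspa4 (HSP110 class too) fell at 1416146_at, a log2 change of -0.40 (adjusted p = 0.0438), which passed only without differentiated sample 1 when samples were left out. Its other MOE430A probe sets stood at -0.012 and 0.082.

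Hspa14, an HSP70 bound to the ribosome, had the lowest adjusted p among the falls of this family. It read 1592, 1727 and 1663 in the undifferentiated and 922, 1006 and 1024 in the differentiated samples. The states did not overlap and the spread within each was small, with a log2 fold change of -0.71 ± 0.12 (adjusted p = 0.00506, and 0.0136 to 0.025 without each sample). The constitutive Hspa8 gave probe sets that disagreed. 1420622_a_at read 8796, 7733 and 11707 against 4963, 4875 and 6383, a log2 change of -0.78 ± 0.19 (adjusted p = 0.0248). That call was lost without undifferentiated sample 1 or 4 or differentiated sample 1 or 2 (highest adjusted p 0.0706). 1420623_x_at, the probe set of highest signal, overlapped between states at 34536 ± 1579.6 and 34612 ± 2424, with a log2 fold change of 0.0017. 1455789_x_at stood at -0.38 (adjusted p = 0.0621). By the chip's naming, _x_at marks probe sets with probes that can match other transcripts, so these readings of Hspa8 are uncertain, as are those of Hspb1 at 1425964_x_at and of Cct4 at 1433447_x_at and 1456082_x_at.

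The stress-inducible HSP70 did not pass in either direction. Hspa1b read 1478, 1673 and 2031 at 1427127_x_at in the undifferentiated and 1345, 1404 and 1098 in the differentiated samples. These did not overlap, and the log2 fold change was -0.40 ± 0.16 (adjusted p = 0.108). Its other probe sets stood at -0.48 (adjusted p = 0.0554) and -0.18. Hspa1a, a near-identical copy, was below background in all samples at its own probe set (89.4 to 299.7), but such copies cannot be told apart with certainty by these probes. Hspa2, the HSP70 of spermatogenesis, read 615, 160.0 and 892 against 1532, 980.1 and 1154. It did not overlap but spread widely, at 1.24 ± 0.49 (adjusted p = 0.101). The 4 probe sets of the microsomal Hspa13, all on MOE430B, ranged from -0.73 to 0.12 and did not pass. The 4 of Hspa12a, also on MOE430B, did not pass and were below background in all undifferentiated samples.

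Hsp90aa1, the inducible cytosolic HSP90, had 3 MOE430A probe sets that pointed down, and 1 of them passed. Probe set 1438902_a_at read 11243, 11742 and 12784 against 8005, 9303 and 8769.9, a log2 change of -0.45 ± 0.13 (adjusted p = 0.0347) that passed only without differentiated sample 2 when samples were left out. The others stood at -0.37 (adjusted p = 0.0891) and -0.12 (adjusted p = 0.469). The MOE430B probe sets did not pass and were mostly below background.

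DNAJA and DNAJB are J-domain proteins. Of 15 DNAJB probe sets tested on MOE430A 4 rose (26.7%) and 1 fell (6.67%). Of 9 DNAJA probe sets 1 rose and 1 fell (11.1% each). Beside these, 14.1% of all probe sets tested there rose and 14.4% fell. The DNAJB counts were 2 and 0 under scaling on the poly-A controls, without undifferentiated sample 2 or 4 and with no filter. They were 1 and 0 without undifferentiated sample 1, 2 and 1 without differentiated sample 4, and 3 and 0 without differentiated sample 2. Under scaling on the hybridisation controls they were 0 and 9 of 16 tested. The DNAJA counts were 0 and 0 under scaling on the poly-A controls and 0 and 6 under scaling on the hybridisation controls. Among all probe sets, 1223 and 1291 of 15971 passed under the poly-A scaling and 233 and 10955 of 16310 under the hybridisation scaling. Without differentiated samples 1 and 4 the median log2 fold changes were 0.25 for DNAJB and -0.031 for DNAJA. No DNAJA probe set rose without undifferentiated sample 1, 2 or 4 or differentiated sample 1. Dnajb4, a cytosolic partner of HSP70 close to Dnajb1, had the largest fitted rise among the DNAJ probe sets that passed. Probe set 1451177_at read 711, 845 and 743 in the undifferentiated and 1593, 1507 and 1874 in the differentiated samples. The lowest differentiated value was well above the highest undifferentiated value, and the log2 fold change was 1.04 ± 0.14 (adjusted p = 0.00218, and 0.00578 to 0.0137 without each sample). Probe set 1431734_a_at was below background in all undifferentiated samples (102, 97.2 and 382) and in 2 of the differentiated ones (623, 907 and 662). It was at least 1.25-fold higher (adjusted p = 0.0163), a call lost without undifferentiated sample 1 or 2 (highest adjusted p 0.0555). On MOE430B Dnajb4 stood at 0.077 ± 0.23 and did not pass (adjusted p = 0.91).

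Dnajb1 (HSP40), the classic partner of inducible HSP70, pointed both ways. Probe set 1416756_at fell from 2472 ± 292 to 1638 ± 298, a log2 change of -0.58 ± 0.17 (adjusted p = 0.0392), and passed only without differentiated sample 1 when samples were left out. Probe set 1416755_at read 1867, 1931 and 1781 against 2144, 2222 and 2115, higher without overlap, at 0.21 ± 0.11 (adjusted p = 0.204). Dnajb2, known from neurons, rose by 0.54 ± 0.15 (adjusted p = 0.036) and the membrane-anchored Dnajb12 by 0.56 ± 0.17 (adjusted p = 0.0441). The first passed only without differentiated sample 1 and the second only without undifferentiated sample 2 when samples were left out. Dnajb6, which keeps polyglutamine proteins soluble, had no probe set that passed among 4, from -0.42 to 0.31. Dnajb5, Dnajb8, Dnajb11 and Dnajb14 did not pass at any probe set.

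Dnaja1, a farnesylated partner of Hspa8, read 8988, 9599 and 8684 at 1416288_at in the undifferentiated and 5558, 5781 and 6132 in the differentiated samples. All differentiated values were lower and close together, with a log2 change of -0.64 ± 0.12 (adjusted p = 0.0083, and 0.0183 to 0.0365 without each sample). Its probe sets 1460179_at and 1459835_s_at (MOE430B) stood at -0.22 and -0.92 without overlap, and did not pass. Dnaja3 (TID1), the J-domain partner of Hspa9 in mitochondria, read 801, 943 and 981 against 1297, 1178 and 1657, a rise of 0.55 ± 0.16 (adjusted p = 0.0427) that passed only without differentiated sample 2 when samples were left out. Its probe set 1420629_a_at stood at 0.40 without overlap (adjusted p = 0.0609). Dnaja2 and Dnaja4 did not pass at any of their 4 and 3 tested probe sets. Over 25 genes with several probe sets on MOE430A, the distance between the lowest and highest log2 fold change of a gene had a median of 0.48. It was widest in Dnaja4, at 1.25, where 2 probe sets were below background in all undifferentiated samples.

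The mitochondrial chaperonin passed no test in limma. Of its 3 probe sets, 0 had an unadjusted p below 0.05, where 6665 of all 15939 did in either direction. A count among 3 probe sets cannot show that this family changed less than others. Hspd1 (HSP60) read 14098, 13643 and 12187 in the undifferentiated and 12542, 12918 and 13322 in the differentiated samples. The states overlapped, with a log2 fold change of -0.04 ± 0.12 (adjusted p = 0.831). Hspe1 (HSP10), its lid, read 7382, 7607 and 7657 against 8181, 7947 and 8588 at 1450668_s_at, at 0.12 ± 0.11 (adjusted p = 0.437), and stood at -0.043 at 1422579_at. The 95% intervals of the log2 difference were -0.32 to 0.24 for Hspd1 and -0.14 to 0.39 for Hspe1, and no test compared them with Hspa9. The RefSeq start windows of the pair lie on opposite strands and overlap. Their shared region is printed because it holds the only windows with 2 overlapping 3-unit heat shock elements among the chaperones. It is given on the strand of Hspe1 (GRCm38.p6, chr1:55087898-55088147, 250 bases before the Hspe1 start), with the elements in capitals.
Hspe1: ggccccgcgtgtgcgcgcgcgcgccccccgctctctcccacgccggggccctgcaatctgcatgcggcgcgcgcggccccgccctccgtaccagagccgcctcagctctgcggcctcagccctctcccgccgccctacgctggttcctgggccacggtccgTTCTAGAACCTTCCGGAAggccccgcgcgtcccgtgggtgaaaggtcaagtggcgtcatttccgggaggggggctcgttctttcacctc
The 3-unit form was thus present at Hspd1 and Hspe1, which did not pass, at Dnajb6, which did not pass either, and at Hsph1, which rose, and was not among the letters before the start of Hspb1.

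The TRiC chaperonin fell at some of its probe sets. Of 20 probe sets of its subunits tested on MOE430A, 7 fell and none rose, beside 14.4% and 14.1% of all probe sets. Their median log2 fold change was -0.36. With each gene shown by its probe set of highest signal, 1 of 9 genes fell and none rose, Cct8l1 on MOE430B included. Among all genes 9.27% fell and 9.23% rose. The median by gene was -0.13, against 0.040 for all genes. Under scaling on the hybridisation controls all 20 probe sets passed as lower, where 10955 of all 16310 did. Under scaling on the poly-A controls none passed in limma, where 1291 of all 15971 passed as lower, and the TRiC median was -0.34. At an unadjusted limma p below 0.05, 4 of the 20 were lower with poly-A scaling. Of all 15971 probe sets tested there, 4542 were below that p in either direction. Without differentiated samples 1 and 4, which leaves 1 differentiated sample, the median was -0.32. Without undifferentiated sample 1, 2 or 4 the falls were 4, 3 and 2, where 1552, 1466 and 1389 of all 15939 probe sets fell. The 7 came from Cct2, Cct3, Cct4 (2), Cct6a, Cct7 and Cct8, 6 of the 8 subunits tested. Cct6a, the zeta subunit, read 6235, 6246 and 6724 at 1455988_a_at in the undifferentiated and 3677, 4046 and 3782 in the differentiated samples. The states were well apart, with a log2 change of -0.73 ± 0.12 (adjusted p = 0.00463, and 0.0117 to 0.0248 without each sample). Cct8 (theta) read 4256, 4175 and 3896 against 2477, 2748 and 3012, a log2 change of -0.57 ± 0.13 (adjusted p = 0.0166) that was lost without undifferentiated sample 1 or 2 (highest adjusted p 0.0578). Cct7 (eta) fell by 0.67 ± 0.16 at 1415817_s_at (adjusted p = 0.0216). That call was lost without undifferentiated sample 2 or 4 or differentiated sample 2 (highest adjusted p 0.0685).

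Cct3 (gamma) fell by 0.62 ± 0.13 at 1449645_s_at (adjusted p = 0.0123) and Cct4 (delta) fell by 0.59 ± 0.12 at 1433447_x_at (adjusted p = 0.0134). Both lost the call without undifferentiated sample 4, at adjusted p = 0.0507 and 0.0546. Cct4 also fell at 1456082_x_at, a log2 change of -0.47 (adjusted p = 0.0352), which passed only without differentiated sample 4 when samples were left out. Cct2 (beta) fell by 0.57 ± 0.16 at 1433534_a_at (adjusted p = 0.0357), a call lost whichever of the 6 samples was left out (adjusted p 0.057 to 0.0915). Cct5 (epsilon) read 7260.0, 7918 and 8670.0 against 6987, 5682 and 5892, lower without overlap, at -0.36 ± 0.14 (adjusted p = 0.0956). Tcp1 (alpha), the founding subunit, overlapped between states at 9012, 11282 and 9949.7 and 10538, 11101 and 11815. Its log2 fold change was 0.15 ± 0.13 (adjusted p = 0.437), with a 95% interval from -0.17 to 0.47. Cct8l1, a copy related to Cct8 and measured on MOE430B, stood at 0.75 ± 0.31 and did not pass (adjusted p = 0.329).

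Probe sets of the same subunit disagreed, and except for Cct8 the falls were not at those of highest signal. Mean signals over the 6 arrays ran from 1797 to 6628 for the 7 that passed, while 8 that did not pass read higher than all of these, up to 12436. Of the 8 subunits, the probe set of highest signal passed only for Cct8, and these 8 had a median log2 fold change of -0.14 (-0.57 to 0.15). For Cct6a, 1423517_at overlapped at 12822, 11533 and 14527 and 12846, 9890.4 and 12999.8, with -0.13 ± 0.16 (adjusted p = 0.591). Cct3 at 1448178_a_at stood at 0.036, Cct4 at 1415867_at at -0.14, Cct7 at 1415816_at at -0.13 and Cct2 at 1433535_x_at at -0.35, none of which passed. Signal depends on a probe set's own probes as well as on RNA, and which reading is nearer to the RNA level was not tested. Proliferation genes fell in the same comparison, 15 of 16 tested (median -1.68, summed signal 56662 to 58854 undifferentiated and 15658 to 18276 differentiated), and their part in the TRiC values was not tested.

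**Figure D3:**
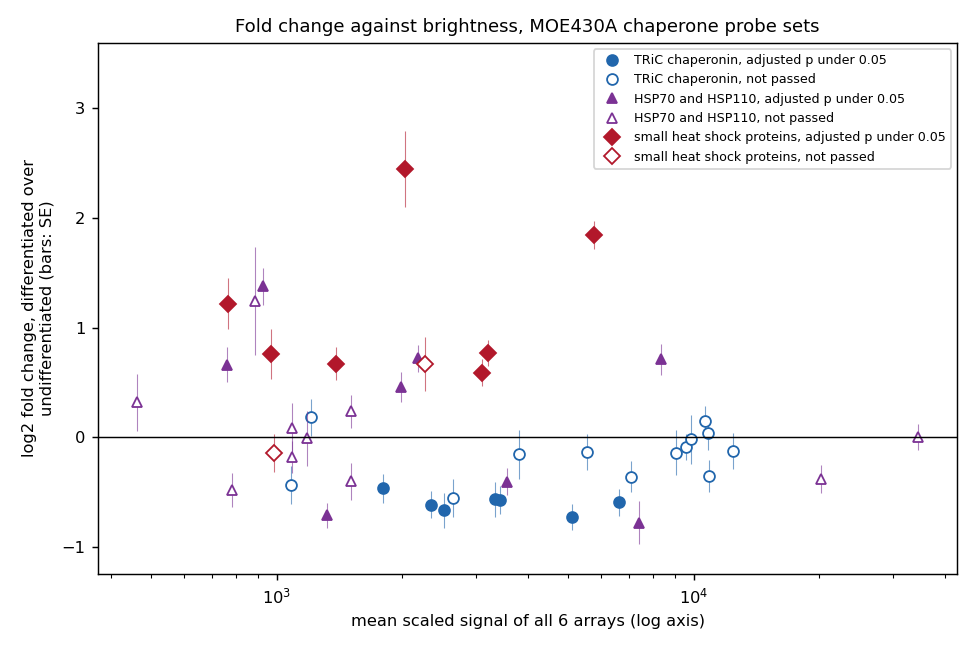
Log2 fold change (vertical axis, bars are SE) against the mean scaled signal over all 6 arrays (horizontal log axis) of TRiC, HSP70 and HSP110, and small heat shock protein probe sets on MOE430A. Filled symbols passed. Filled TRiC points lie between signals of 1797 and 6628, while the 8 TRiC points to the right of these are open and closer to 0.

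The partners of TRiC and of HSP70 were followed with lists of genes, beside shares of 9.23% of all genes that rose and 9.27% that fell. Of 15 prefoldin and tubulin folding genes, which hand chains to TRiC or act after it, 7 fell and none rose (median -0.49, against 0.040 for all genes). Pfdn1 fell by 0.75 ± 0.15 (adjusted p = 0.0117) and Uxt passed as lower (adjusted p = 0.00526), but was below background in every sample. Of 16 genes with actin or tubulin symbols, taken for the clients of TRiC, 3 rose and 3 fell. Actb rose by 1.08 ± 0.17 (adjusted p = 0.00405), while Tubb6 fell by 1.41 ± 0.20 (adjusted p = 0.00294) and Tubb4b fell by 1.04 ± 0.12 (adjusted p = 0.00108). Beside Actb, Tubb2a-ps2 was the larger of the other rises, at 0.84 ± 0.22 (adjusted p = 0.0288). Its symbol is that of a pseudogene, so its signal is not read as that of a client.

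Of 22 co-chaperones of HSP70 and HSP90, 2 rose and 5 fell (median -0.25), where 9.23% of all genes rose and 9.27% fell. Bag3, a heat shock gene and the partner of Hspb8, read 4968, 4971 and 3807 in the undifferentiated and 2313, 2851 and 2579.9 in the differentiated samples. It did not overlap and fell by 0.80 ± 0.16 (adjusted p = 0.0104), opposite to Hspb8. Dnajc7, which binds both HSP70 and HSP90, fell by 0.83 ± 0.15 (adjusted p = 0.0068). Bag2, an exchange factor that inhibits the ligase CHIP, rose by 0.87 ± 0.12 (adjusted p = 0.00258), and Bag5 by 0.59 ± 0.15 (adjusted p = 0.0254). Of 25 DNAJC proteins tested, 1 rose and 3 fell. Dnajc28 rose by 0.58 ± 0.14 (adjusted p = 0.0205). Among the falls, Dnajc9, a histone chaperone of dividing cells, fell by 1.54 ± 0.14 (adjusted p = 0.000367) and Dnajc21 fell to below background in all differentiated samples, at least 1.17-fold lower (adjusted p = 0.0188).

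Of 23 genes of mitochondrial import and proteolysis, which work with Hspa9 and Hspd1, 1 rose and 6 fell (median -0.13). Among all genes 9.23% rose and 9.27% fell. Clpb, a disaggregase, passed as higher (adjusted p = 0.0224). It was below background in all undifferentiated samples and in 2 of the differentiated ones. The bound of at least 1.34-fold rests in part on those values. The channel subunit Timm50 fell to below background in all differentiated samples, at least 1.47-fold lower (adjusted p = 0.00939). Afg3l1, a protease of the inner membrane in mouse, passed as lower (adjusted p = 0.0446), but 1 undifferentiated and all 3 differentiated values were below background and no fold is given. In the endoplasmic reticulum 1 of 14 chaperones, each shown by its probe set of highest signal, rose, the collagen chaperone Serpinh1, by 1.09 ± 0.12 (adjusted p = 0.000868), and none fell. Hspa5, the HSP70 there, stood at 0.19 ± 0.13 at 1416064_a_at (adjusted p = 0.332), while 1427464_s_at fell by 0.55 ± 0.15 (adjusted p = 0.031). Its MOE430B probe set stood at 0.62 ± 0.22 without overlap and did not pass (adjusted p = 0.256). Dnajb9, its stress-induced partner, stood at 0.025 ± 0.16 (adjusted p = 0.92). No gene of 4 in the heat shock factor list passed. Hsf2 stood at 0.055 ± 0.25 on MOE430B (adjusted p = 0.939) and was too dim to test on MOE430A. Hsf1 was not analysed here.

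The calls were followed under other ways of processing. Of the 17 rises, 8 passed without each of the 6 samples in turn, and of the 13 falls, 3 did (Cct6a, Hspa14 and Dnaja1). The 8 were at both probe sets of Hspb1 and at the first-named probe sets of Hspb8, Hspb2, Hsph1 and Dnajb4 and at 1418504_at and 1431274_a_at of Hspa9. Without differentiated samples 1 and 4, which leaves 1 differentiated sample assumed to vary like the others, 6 of the 17 rises and none of the 13 falls passed. All 30 kept their direction there and under every other alternative except scaling on the hybridisation controls. That scaling moved the median of all probe sets on MOE430A to -1.07, and 5 of the 17 rises still pointed up. Under scaling on the poly-A controls 7 of the 17 rises passed and none of the 13 falls, whose adjusted p lay between 0.0603 and 0.37. Among all probe sets on MOE430A, 1223 rose and 1291 fell under the poly-A scaling, against 2252 and 2298 as reported. Changes here are therefore relative to the common trimmed mean of the arrays.

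**Figure D4:**
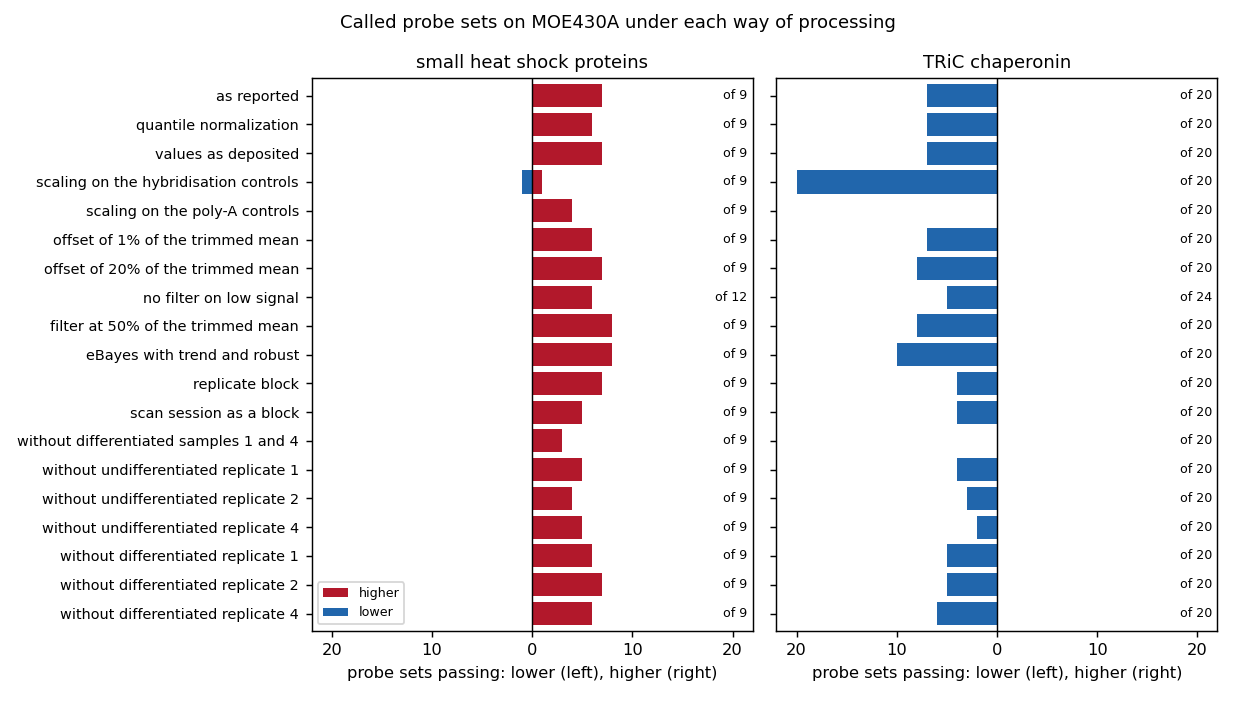
Number of MOE430A probe sets passing as higher (red, to the right) and lower (blue, to the left) among small heat shock proteins and TRiC subunits under each way of processing, with the number tested at the right edge. Rises of small heat shock proteins passed under each setting, with 1 rise and 1 fall under scaling on the hybridisation controls, and TRiC falls were 0 under scaling on the poly-A controls and without differentiated samples 1 and 4.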

How the data were processed

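Total RNA of 3 undifferentiated and 3 differentiated mammosphere samples was hybridised to Affymetrix MOE430A and MOE430B. The deposited values are intensity on a linear scale, made by the authors with MAS5 per the submitters' processing notes. Every deposited array had a trimmed mean (2% off each end) of about 1500.5 on MOE430A and 1500.2 on MOE430B. Fluidics station and scan session were read from each array's instrument file, per the file headers, and undifferentiated sample 1 alone was scanned in session 2. Symbols came from the platforms' probe-to-gene tables, updated through RefSeq (GRCm38.p6). Probe sets with several genes or none (691 and 1606 on MOE430A, 245 and 7656 on MOE430B) entered the tests unnamed.

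With R 4.3.3 and limma 3.58.1, each chip was fitted apart on log2(signal + 75), the offset being 5% of the trimmed mean, after the filter on mean signal (15939 and 17915 probe sets tested). lmFit and eBayes compared the states with no covariate, with Benjamini-Hochberg adjustment over the chip at 0.05. Fold changes on this scale understate the change of low signals. Background was the highest signal of the Trpn control probe sets of an array (516 to 829.9 on MOE430A, 1674 to 2995 on MOE430B). Where all samples of a state lay below it, the fold is a bound, the other state's mean over the higher of background and signal. The scripts were tested on simulated data. Python 3.11.15, pandas 2.3.3 and matplotlib 3.10.9 made tables and plots.

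The members, gene lists, tests and alternatives were chosen with earlier results of these data known. Full statistics were given to up to 10 rises and 10 falls per chip that passed without overlap, to a set of core members and Hsf2, Bag3, Hspa5 and Dnajb9 whatever their values, and to up to 2 rises and 2 falls of each list. The leukocyte list (8 tested) had 2 rises, Lyz2 and Csf1r, and a median log2 fold change of 0.57. The endothelial list (5 tested) had 1 rise, Kdr, and 2 falls, Pecam1 and Tek, and a median of -0.20.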

Additional observations from a re-analysis of the deposited data

How the results depend on the processing

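The reported counts on MOE430A were 17 higher and 13 lower. Among all 15939 probe sets they were 2252 and 2298. With scaling on the hybridisation controls the chaperone counts were 1 and 54 of 79, where 233 and 10955 of all 16310 passed. With scaling on the poly-A controls they were 8 and 0, where 1223 and 1291 of all 15971 passed. With scan session as a block, which equals leaving out undifferentiated sample 1, they were 10 and 6, where 1606 and 1552 of all passed. Without differentiated samples 1 and 4 the chaperones' median log2 fold change was -0.031, against 0.036 for all probe sets. Without each sample in turn 9 to 15 chaperone probe sets were higher and 4 to 11 lower. Among all probe sets 1371 to 1836 were then higher and 1389 to 2000 lower. With no filter on low signal 12 were higher and 8 lower, where 1839 and 1948 of all 22626 were. Pairing of samples by number was not seen. Deviations of same-numbered samples correlated at 0.039, -0.019 and 0.020 on MOE430A and 0.031, -0.021 and 0.047 on MOE430B. With 3 samples per state these values cannot show that there was no pairing. With the sample number as a replicate block, 13 were higher and 7 lower, where 1745 and 1818 of all probe sets were. Counts on MOE430B were 0 and 0 throughout, except 2 lower with scaling on the hybridisation controls, where 1478 of all 18197 were lower. Under that scaling, which moved the median of all probe sets to -1.07 on MOE430A and -0.92 on MOE430B, log2 fold changes reversed to -0.56 for Dnaja3, -0.58 for Dnajb12, -0.59 for Dnajb2, -0.070 for Dnajb4, -0.41 for Hspa4l, -1.18 for Hspa8, -0.47 for Hspa9, -0.43 for Hsph1, -1.15 for Cct3, -1.03 for Tcp1, -1.05 for Hspe1, -0.45 for Hspb7 and -0.39 for Hspb8. No named chaperone that passed reversed under any other alternative run. For those that passed neither time, a change of direction was not counted. Of the 3 mitochondrial chaperonin probe sets, 1 pointed up as reported and 2 without undifferentiated sample 1. Of the 28 named chaperones, 20 to 28 kept their side of the threshold under each other alternative, except 15 with poly-A scaling. Those that passed both times also kept their direction. The fit without differentiated samples 1 and 4 is left out of this range. Where a call was lost, the cause was not tested. Scaling on the poly-A controls moved the median of all probe sets on MOE430B to 0.17. On MOE430B, 69.2% to 84.8% of probe sets were below background in an array, which limits what it can show.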
